A study of Mus musculus with 36 samples.

Results

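The zinc finger genes numbered Zfp850 to Zfp999 were followed in liver, spleen and thymus of mice. Members were the protein-coding genes whose RefSeq symbol is Zfp, a number in that range and at most 1 letter, and whose NCBI gene number is a row of both deposited expression tables. The symbol range holds 79 protein-coding genes, of which 69 were in both tables, out of 17488 genes found in both. Zfp872 and Zfp981 were in the paired-end table only, Zfp853 was in the single-end table only, and 7 were in neither. No measured value entered the choice of members, although the range was picked with earlier results of these data known.

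The study sequenced total RNA of tissues kept in RNAlater, with stranded Illumina libraries, from mice with normal p53 (wt) and from mice whose p53 lacks its C-terminus (d24). There are 12 groups with 3 libraries each (36). All 18 sequenced in paired-end mode are wt: liver, spleen and thymus, each without treatment or after X-rays (2 Gy, 3 h). The 18 single-end libraries are all titled as X-ray, with d24 and wt groups in each tissue. Their treatment labels do not match their titles: d24 liver, d24 thymus and wt spleen are also labelled as controls, and d24 spleen, wt liver and wt thymus as irradiated. The genotype label of the libraries titled d24 reads WT. The labels give no strain, age or sex, and do not say that replicates are separate animals, so p-values measure only the spread between these samples. Within each single-end comparison, genotype and labelled treatment cannot be told apart.

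Most mouse genes of this kind encode proteins with a KRAB domain followed by an array of C2H2 zinc fingers. The fingers read DNA, often within transposable elements, and the KRAB domain recruits the corepressor Trim28, which brings the histone methyltransferase Setdb1 to silence the bound site. The genes lie in clusters of near copies that grew by tandem duplication, and clusters on chromosomes 2 and 4 are known for silencing retrotransposons. p53 is the transcription factor that X-ray damage stabilises, and radiosensitive lymphoid tissue such as spleen and thymus answers it strongly.

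Depth was 44348579 to 81322683 reads in the paired-end libraries and 20481048 to 38042710 in the single-end ones, so 1 read was worth 0.00991 to 0.0377 and 0.0171 to 0.0828 units of deposited signal. Cdkn1a, the p53 target that encodes the p21 inhibitor, rose after X-ray by 2.98 ± 0.15 (log2 ± SE) in paired-end liver, 4.87 ± 0.16 in spleen and 3.01 ± 0.12 in thymus. The p53 target Ccng1 rose by 2.02, 3.28 and 2.73. In the single-end libraries Cdkn1a signal averaged 277 ± 147 (SD, n = 3) in d24 liver against 66.2 ± 70.0 in wt liver, 373 ± 49.2 in d24 spleen against 7.40 ± 1.96, and 38.0 ± 25.9 in d24 thymus against 14.6 ± 2.90. The libraries titled d24 liver, labelled as controls, thus had more Cdkn1a on average than those titled wt liver. In the paired-end libraries, summed hepatocyte markers were highest in liver, T cell markers in thymus, and B cell and erythroid markers in spleen. Xist signal was above 100 in 1 untreated and 2 X-ray paired-end libraries of each tissue, so the sexes were not balanced between the groups. The single-end groups were not balanced either. In liver, spleen and thymus it was above 100 in 2, 3 and 3 d24 libraries, against 1, 1 and 2 wt libraries.

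Among the 67 members with a coding transcript, the number of C2H2 fingers ran from 2 to 21 with a median of 11, and 49 had at least 10. Zfp874a and Zfp874b each had 10 fingers in a protein of 447 residues, and Zfp958 had 13 in 467. The members lie on 12 chromosomes, and 7 clusters of at least 3 members, with gaps of at most 1000000 bases, hold 45 of the 69. Many share long stretches of sequence with neighbours: in 24 members over 20% of the 50-base windows of the transcript occurred in another gene, and for those genes reads could have been split or lost between copies. In addition, 23 members overlap another RefSeq gene.

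Zfp874a, Zfp958 and Zfp874b, 3 of the 4 genes called higher after X-ray, are shown with the 250 bases before a transcript start in the RefSeq promoter table, the first one listed for each gene. For Zfp874b that window lies inside the gene span given in the next paragraph, so a start farther upstream was not searched. The sequences are from RefSeq on GRCm38.p6, 5′ to 3′ on the strand of the gene, and capitals mark the match, on the opposite strand, to the core of the site known for the factor ZNF143.
Zfp874a (chr13:67451625-67451874, minus strand): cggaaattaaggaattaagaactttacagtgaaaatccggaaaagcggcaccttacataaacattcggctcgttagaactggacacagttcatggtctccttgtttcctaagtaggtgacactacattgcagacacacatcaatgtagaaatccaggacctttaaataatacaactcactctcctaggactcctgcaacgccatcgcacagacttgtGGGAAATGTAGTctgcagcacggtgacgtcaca
Zfp874b (chr13:67484254-67484503, minus strand): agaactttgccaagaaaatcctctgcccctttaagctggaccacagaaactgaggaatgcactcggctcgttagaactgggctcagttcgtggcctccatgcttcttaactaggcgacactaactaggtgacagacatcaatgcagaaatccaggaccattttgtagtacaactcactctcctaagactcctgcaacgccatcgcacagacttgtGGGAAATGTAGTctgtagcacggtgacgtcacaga
Zfp958 (chr8:4612920-4613169, plus strand): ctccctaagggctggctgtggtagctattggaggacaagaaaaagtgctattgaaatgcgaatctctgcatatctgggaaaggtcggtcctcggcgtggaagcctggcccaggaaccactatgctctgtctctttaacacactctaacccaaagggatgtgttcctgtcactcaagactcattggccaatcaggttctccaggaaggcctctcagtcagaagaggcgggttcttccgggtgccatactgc

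Zfp874a (chr13:67440431-67451624) and Zfp874b (chr13:67471513-67486241) are neighbours on chromosome 13, and the windows shown were identical at 196 of 231 aligned bases (84.9%). Zfp958 (chr8:4613170-4632572) has no match in its window. Each motif was searched on both strands of the 300 bases from 250 before to 50 after the start listed. The 12-base ZNF143 core, with any base at its 2 inner positions, was found in 6 of the 62 members with a window (9.68%), in 20.1% of other Zfp promoters and in 1.98% of all 27025 promoters. The other matches were in Zfp933, Zfp940, Zfp879 and Zfp953. The GC box GGGCGG, the site known for Sp1, was in 37.1% of the members and 35.9% of all. The single p53 decamer consensus was in 3 of 62 (4.84%), namely Zfp940, Zfp963 and Zfp866, against 8.37% of all, and a pair of decamers at most 13 bases apart, which overlaps the single motif by construction, in 0 of 62 against 0.0592%. None of the 3 printed genes had a decamer match in this window, which says only that these letters are not there.

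In untreated wt tissue the members were of low to moderate signal. The mean of 3 libraries reached 1 in 62 of 69 members in liver, 59 in spleen and 60 in thymus, and reached 10 in 18, 13 and 23. The highest mean signals over the untreated libraries were 71.3 for Zfp871, 34.4 for Zfp869, 32.9 for Zfp866, 22.0 for Zfp955a and 19.0 for Zfp874a. The order differed by tissue: in liver Zfp970 (36.1) was above Zfp869 (33.3) and Zfp866 (24.8), and in thymus Zfp866 (39.7) was above Zfp869 (35.5). Divided by the length of the annotated exons, the order changed to Zfp869 with 21.7 units of signal per kb, Zfp970 with 7.94, Zfp993 with 6.43 and Zfp871 with 6.41. The length used for Zfp869, 1590 bases for a protein of 529 residues, is that of the coding sequence alone. Its value per kb may thus be too high. Zfp970 and Zfp993 share 49.5% and 86.8% of their windows with other genes, so their place is uncertain too. The mean signal was highest in thymus for 36 members, in liver for 29 and in spleen for 4.

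**Figure D1:**
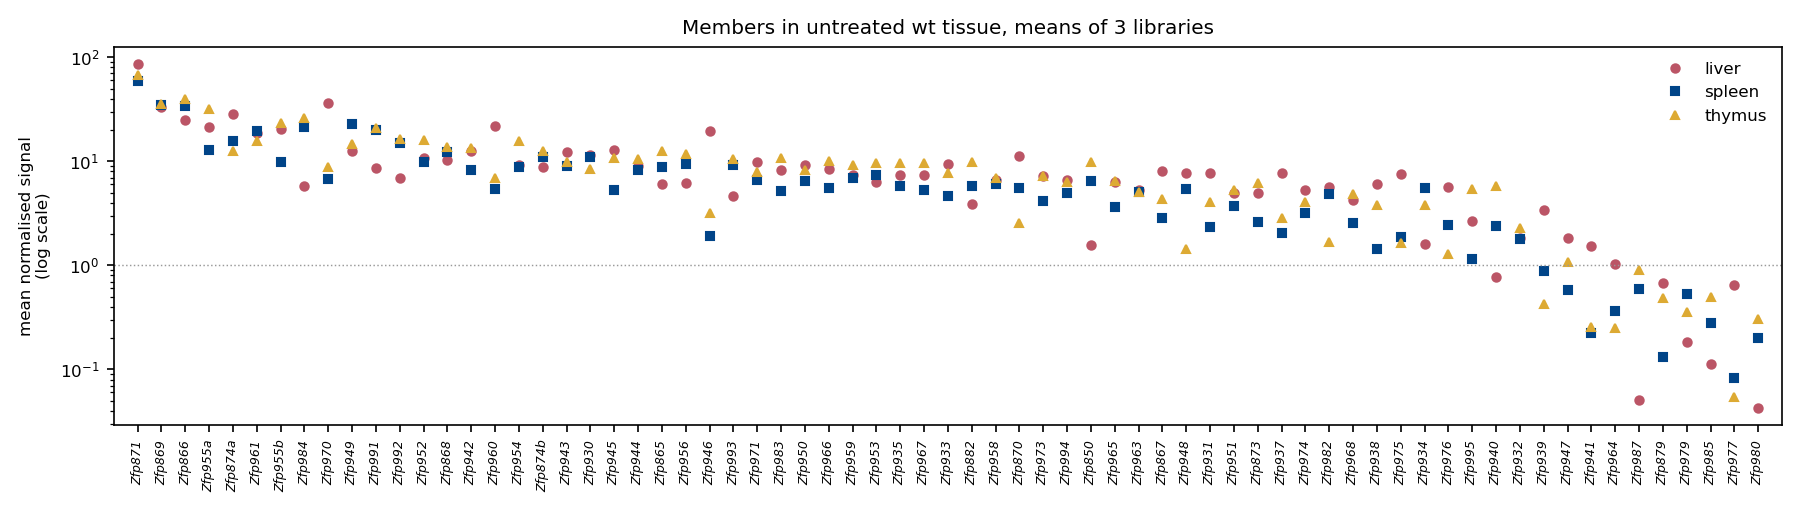
Mean deposited signal (log scale) of each member in untreated wt liver, spleen and thymus, each point the mean of 3 libraries; the dotted line is a signal of 1. Zfp871 is the highest member in all 3 tissues, with a liver mean of 86.0, a spleen mean of 59.6 and a thymus mean of 68.2.

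The untreated tissues differed in most members, as they did in most genes. Genes were tested with limma on log2(signal + 0.5), p-values were adjusted by Benjamini-Hochberg across the whole table, and a gene was called at an adjusted p under 0.05. A gene entered a comparison when 3 or more of its libraries reached a signal of 1. Against liver, spleen had 12 members called higher and 34 called lower of 62 tested (all genes 42.5% and 44.6%), with a median log2 difference of −0.44 against −0.05 for all genes. Thymus had 35 called higher and 8 lower than spleen of 59 (all genes 36.7% and 39.3%), median 0.34. Against liver, thymus had 22 higher and 21 lower of 62 (41.3% and 45.5%), a split that moved with the scaling: edgeR gave 30 and 16, DESeq2 29 and 17, and median-ratio scaling 26 and 17, while edgeR moved the median of all genes from −0.08 to 0.12. The other Zfp genes, numbered below 850, had 175 higher and 37 lower of 269 in thymus against spleen, median 0.56. The tilt towards thymus over spleen was thus not particular to the members. Against liver, these other genes had 89 higher and 117 lower of 275 in spleen (median −0.17). In thymus against liver they had 154 and 66 of 281 (median 0.43).

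The member with the widest tissue difference was Zfp946, with a signal of 19.5 ± 2.38 in liver (SD, n = 3), 1.92 ± 0.24 in spleen and 3.18 ± 0.14 in thymus. Its spleen level was lower than liver by 3.05 ± 0.13 on the log2 scale (adjusted p = 3.53e-09, limma), and its thymus level was lower by 2.44 ± 0.12. Zfp970 had 36.1 ± 10.1 in liver and 6.83 ± 1.00 in spleen. Zfp960 had 21.7 ± 1.09 in liver and 5.37 ± 0.28 in spleen. Zfp970 and Zfp960 share 49.5% and 82.7% of their windows with other genes, so their own levels are uncertain. Zfp850 and Zfp940 ran the other way, with thymus above liver: 9.79 ± 0.47 against 1.56 ± 0.01 and 5.78 ± 0.78 against 0.77 ± 0.20. Zfp940 entered the comparison of thymus with liver only through its 3 thymus libraries, so the filter favoured this direction in that gene. It could be refitted only without a liver library, and its call held in those 3 refits. Between the lymphoid tissues, thymus exceeded spleen most in Zfp995 (5.48 ± 0.74 against 1.14 ± 0.35). Spleen exceeded thymus most in Zfp948 (5.43 ± 0.53 against 1.43 ± 0.13) and Zfp982 (4.81 ± 0.34 against 1.66 ± 0.73). These are bulk tissues, in which fewer cells of a type and less RNA per cell cannot be told apart.

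Few members rose after X-ray, and Zfp874a and Zfp958 were the ones called higher in all 3 tissues. Zfp874a signal in untreated liver was 30.7, 25.9 and 29.5, against 50.1, 50.7 and 47.9 after X-ray. In spleen it was 21.99, 11.1 and 14.2 against 39.7, 29.1 and 35.5, and in thymus 11.8, 13.2 and 12.4 against 30.0, 30.0 and 24.5. The groups did not overlap in any tissue, and the untreated spleen libraries were the most spread. The log2 differences were 0.78 ± 0.11 (adjusted p = 0.0463) in liver, 1.16 ± 0.23 (adjusted p = 0.00428) in spleen and 1.14 ± 0.11 (adjusted p = 1.35e-04) in thymus, all from limma.

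Zfp958 signal was 6.45, 7.29 and 6.02 in untreated liver and 11.8, 15.03 and 14.7 after X-ray. Spleen had 5.85, 6.07 and 6.39 against 19.8, 15.8 and 20.2, and thymus 6.46, 7.20 and 6.96 against 16.2, 14.99 and 13.5. Its untreated level stayed within 5.85 to 7.29 in all 3 tissues, and every X-ray library lay above every untreated one of its tissue. The log2 differences were 1.01 ± 0.15 (adjusted p = 0.0484) in liver, 1.52 ± 0.12 (adjusted p = 8.16e-05) in spleen and 1.06 ± 0.11 (adjusted p = 2.91e-04) in thymus, all from limma.

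The liver calls of both genes were lost when untreated replicate 1, 2 or 3, or X-ray replicate 2 or 3, was left out, with adjusted p up to 0.318 for Zfp958 and 0.277 for Zfp874a, while the differences stayed between 0.95 and 1.12 and between 0.71 and 0.83. Whether the X-ray difference varied between tissues was tested directly with the interaction of X-ray and tissue (limma): the adjusted p was 0.361 for Zfp874a and 0.0603 for Zfp958. Neither interaction was called, but in the same fit Zfp958 rose more in spleen than in liver (0.51 ± 0.18, adjusted p = 0.045, limma). Its thymus difference was not called against liver or spleen (adjusted p = 0.882 and 0.116, limma). Zfp874a overlaps Zfp459, which had a thymus signal of 2.17 ± 0.47 untreated and 2.06 ± 0.02 after X-ray (log2 −0.04 ± 0.16).

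Zfp874b and Zfp949 were called higher in thymus. Zfp874b, the neighbour of Zfp874a, had 11.3, 14.96 and 11.8 in untreated thymus and 20.96, 18.3 and 17.2 after X-ray, a log2 difference of 0.55 ± 0.13 (adjusted p = 0.0146, limma). This call was lost without untreated replicate 1 (adjusted p = 0.0522). In liver and spleen its differences were 0.41 ± 0.16 and 0.41 ± 0.22, neither called. Zfp949 had 13.6, 14.4 and 16.1 in untreated thymus and 20.3, 18.8 and 18.4 after X-ray (0.38 ± 0.10, adjusted p = 0.0249, limma). The thymus groups did not overlap for either gene, but the Zfp949 call held in 1 of 6 refits that each left out 1 library. Zfp874a and Zfp874b share 7.79% and 13.5% of their windows with other genes, Zfp958 0.648% and Zfp949 0%.

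**Figure D2:**
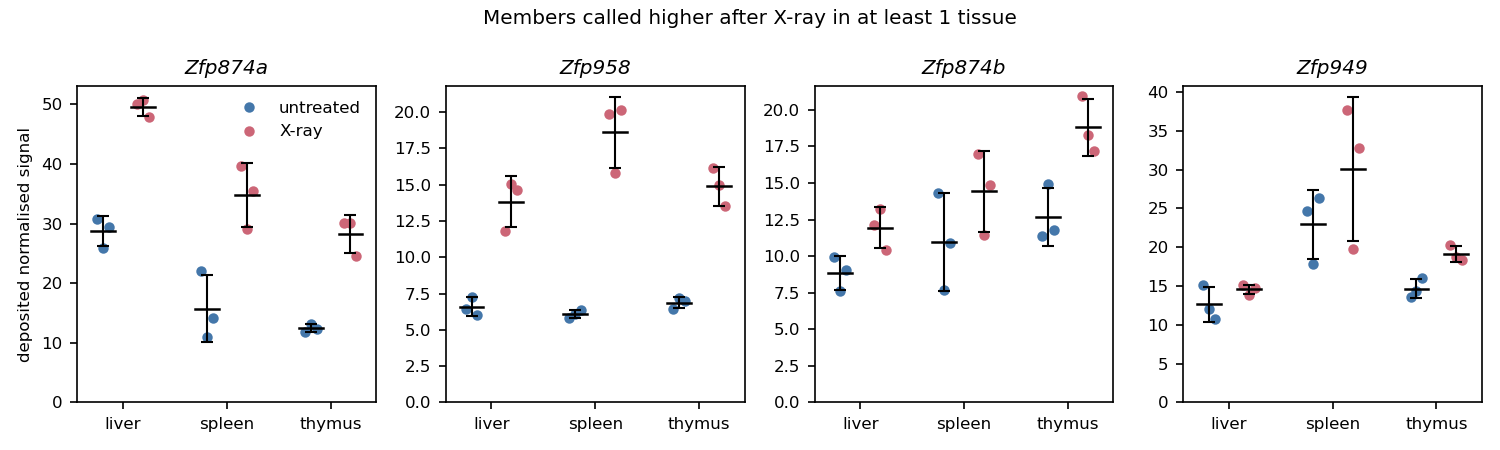
Deposited signal of Zfp874a, Zfp958, Zfp874b and Zfp949 in each untreated and X-ray library of wt liver, spleen and thymus; points are libraries, horizontal lines the mean of 3 and error bars the SD. The X-ray points of Zfp958 lie between 11.8 and 20.2, above the untreated points at 5.85 to 7.29.

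In liver, no member was called lower (0.0377% of all genes). Of 62 members tested, 2 were called higher (3.23%, against 0.204% of all genes). An unadjusted limma p under 0.05 was found in 7 of the 62, against 2902 of all 13250 genes. The largest difference that was not called was that of Zfp994, whose signal was 7.72, 6.08 and 6.30 untreated and 10.02, 11.4 and 11.98 after X-ray (0.70 ± 0.15, adjusted p = 0.145, limma). DESeq2 did call Zfp994 (0.79, adjusted p = 0.005). So did limma in a fit of all 18 libraries (adjusted p = 0.0076) and without X-ray replicate 1 (0.77, adjusted p = 0.0206). All 3 X-ray libraries were above all 3 untreated ones in 7 members, and below in 3 (all genes 13.5% and 13.9%). The median log2 difference was 0.15 against −0.05 for all genes and 0.02 for the 266 other Zfp genes tested, 1 of which was called. In all, 13 of the 62 differences were negative.

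In spleen, members fell more than they rose. Of 59 tested, 19 were called lower (32.2%, against 20.4% of all genes) and 2 higher (3.39% against 19.5%), and the differences ran from −1.40 to 1.52 with a median of −0.20 against −0.03 for all genes. The other Zfp genes had 31 higher and 48 lower of 262, median −0.04. The replicate block gave 4 higher, adding Zfp874b (0.41, adjusted p = 0.0265, limma) and Zfp949 (0.35, adjusted p = 0.0489), and 20 lower, adding Zfp942. Zfp933 was called higher by edgeR (0.50, adjusted p = 0.033) and by DESeq2 (0.47, adjusted p = 0.023). With sex as a covariate, 2 were higher and 12 lower, and without untreated replicate 1 or 2, 10 were called in all. The groups did not overlap in 26 members lower and 4 higher (all genes 28.8% and 24.5%).

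The largest falls in spleen were those of Zfp982, Zfp976 and Zfp934. Zfp982 had 5.20, 4.61 and 4.61 in untreated spleen and 1.74, 1.34 and 1.48 after X-ray, a log2 difference of −1.40 ± 0.13 (adjusted p = 1.90e-04, limma). Zfp976 went from 2.81, 2.87 and 1.63 to 0.894, 0.558 and 0.766 (−1.22 ± 0.21), and Zfp934 from 5.83, 5.997 and 4.69 to 2.33, 2.59 and 2.57 (−0.996 ± 0.13). In these 3 genes every X-ray library was below every untreated one, and the Zfp982 and Zfp934 calls held without any 1 library. Zfp976 entered the comparison only through its 3 untreated libraries, as all its X-ray values were under 1. The filter thus favoured a fall in this gene. It could be refitted only without an X-ray library, and its call held in those 3 refits. Zfp930 had 10.1, 12.5 and 10.5 untreated and 6.496, 7.77 and 6.02 after X-ray (−0.67 ± 0.13). Zfp944 had 9.08, 8.55 and 7.32 untreated and 5.65, 4.51 and 5.15 after X-ray (−0.65 ± 0.13). Zfp982, Zfp976 and Zfp934 share 11.9%, 17.0% and 29.5% of their windows with other genes, Zfp930 0.173% and Zfp944 10.4%.

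Smaller falls in spleen included several near copies on chromosomes 2 and 4. On chromosome 4, Zfp984, Zfp991 and Zfp992 fell by 0.60, 0.58 and 0.55 on the log2 scale, and their calls were lost without untreated replicate 1 or 2, with adjusted p up to 0.0642, 0.0826 and 0.109 (limma). On chromosome 2, Zfp965 and Zfp973 fell by 0.52 and 0.49. Zfp961 and Zfp956, which share 0.879% and 6.55% of their windows with other genes, fell by 0.48 and 0.47. The Zfp956 call was lost without untreated replicate 2 (adjusted p = 0.0527, limma). The other 7 called lower, Zfp943, Zfp955a, Zfp967, Zfp966, Zfp955b, Zfp882 and Zfp866, had differences from −0.47 to −0.30. Zfp975 had the largest difference that was not called, −0.49 (adjusted p = 0.0993, limma). It was −0.30 without untreated replicate 1, and it was called without untreated replicate 3 (−0.72, adjusted p = 0.0235) and in a fit of all 18 libraries (adjusted p = 0.0461). Zfp991, Zfp965 and Zfp973 share 82.2%, 96.3% and 84.7% of their windows with other genes, and Zfp984 and Zfp992 54.5% and 43.0%, so which copy lost signal is uncertain.

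The shared sequence went with the spleen counts. Of the 20 tested members with over 20% of windows shared, 10 were called lower and the median was −0.42. Of the 18 with 5% to 20%, 5 were called lower (median −0.09), and of the 21 under 5%, 4 (median −0.03). In thymus the medians of the same classes were −0.17, −0.16 and −0.15, and in liver 0.16, 0.15 and 0.12, closer together than in spleen. The part of shared sequence in the spleen result was not tested.

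In thymus, 10 of 60 members tested were called lower (16.7%, against 11.6% of all genes) and 4 higher (6.67% against 9.77%), with a median of −0.16 against 0.01 for all genes. The other Zfp genes had 13 higher and 25 lower of 270, median −0.06. The groups did not overlap in 18 members lower and 4 higher (all genes 22.0% and 18.6%). The falls were led by the chromosome 4 genes Zfp992 (−0.61 ± 0.12), Zfp991 (−0.59 ± 0.09) and Zfp984 (−0.51 ± 0.10). Zfp991 signal was 20.98, 19.9 and 21.5 untreated and 14.8, 12.7 and 13.4 after X-ray. Those 3 were called in each of the 6 refits that left out 1 library.

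The other thymus falls were less stable. Zfp934, Zfp930, Zfp943, Zfp944, Zfp993, Zfp850 and Zfp942 fell by 0.49, 0.48, 0.45, 0.44, 0.44, 0.43 and 0.42 on the log2 scale, and each call held in only 1 to 3 of 6 refits. Leaving out 1 library gave from 5 calls (without untreated replicate 1) to 17 members called, and counts over 1.5 times lower came without untreated replicate 2 (9) or 3 (8) and without X-ray replicate 2 (7) or 3 (6). A fit of all 18 paired-end libraries called 9. Zfp976 had the largest difference not called (−0.54, adjusted p = 0.0580, limma). As in spleen, it entered the comparison only through its 3 untreated libraries, so the filter favoured a fall. It could be refitted only without an X-ray library, and was called in 1 of those 3 refits. Of the 19 members called lower in spleen and the 10 in thymus, 7 were the same genes: Zfp930, Zfp934, Zfp943, Zfp944, Zfp984, Zfp991 and Zfp992. The overlap of spleen and thymus calls was not counted over all genes, so these 7 are only a description.

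Other measures moved with these groups. Summed erythroid markers (5 genes) ran from 42429 to 65638 in untreated spleen and from 73688 to 111378 after X-ray, and summed macrophage markers from 290 to 381 and from 449 to 650. Summed B cell markers overlapped, at 939 to 1132 and 956 to 1349, as did cycling cell markers, at 4010 to 4143 and 3016 to 5493. In thymus, summed thymic epithelium markers ran from 367 to 384 untreated and from 593 to 686 after X-ray, and cycling cell markers from 1289 to 1561 and from 1079 to 1123. Thymus groups did not overlap either in macrophage markers (153 to 192 and 200.2 to 293) and neutrophil markers (19.6 to 31.02 and 32.1 to 63.6). The T cell markers of thymus overlapped, at 5111 to 5914 and 5196 to 6612. Summed hepatocyte markers in spleen ran from 45.1 to 64.5 untreated and from 96.8 to 544 after X-ray. In thymus they overlapped, at 59.5 to 216 untreated and 177 to 1524 after X-ray, with 1524 in X-ray replicate 3. Every marker of these lists was detected in the libraries of the tissue named. Their part in the result was not tested.

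**Figure D3:**
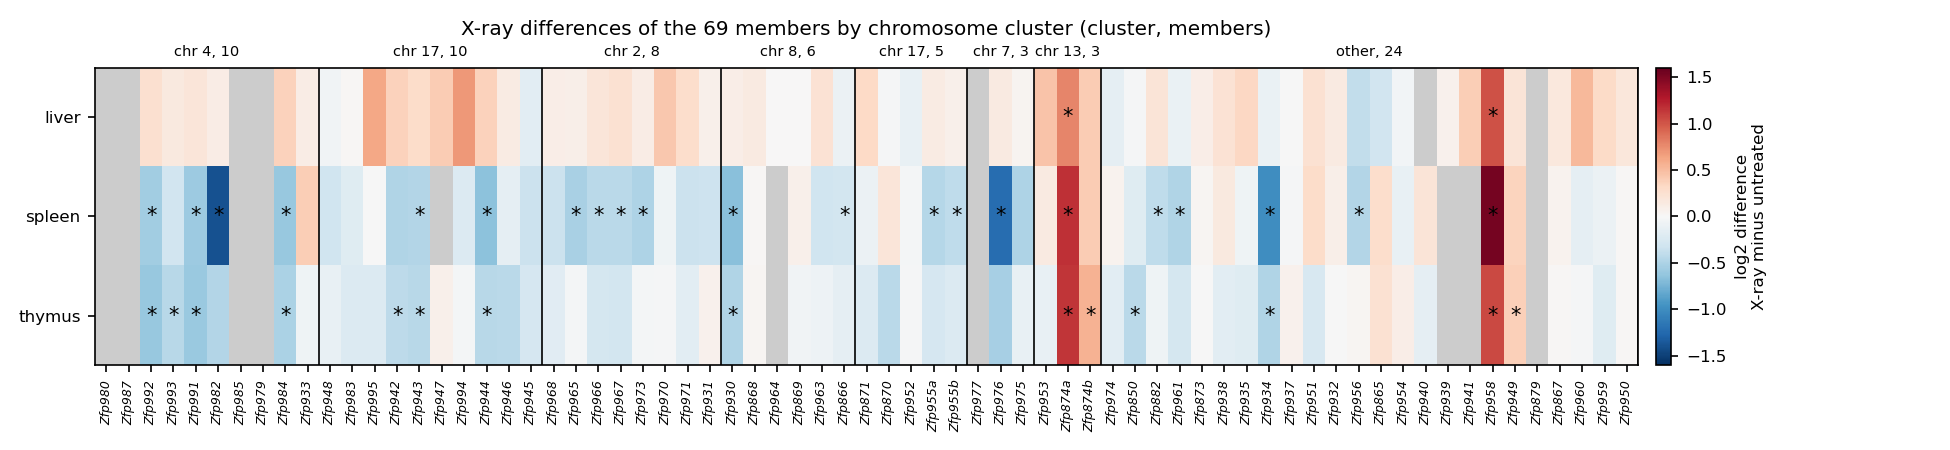
Log2 X-ray minus untreated difference of the 69 members (columns, ordered by chromosome cluster) in wt liver, spleen and thymus (rows). The members of the chromosome 2 cluster are all above 0 in liver and all below 0 in spleen, and Zfp874a and Zfp958 are above 0 in all rows.

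The clusters differed in their share of the change. The 10 members of the chromosome 4 cluster had 6 tested in each tissue, with a liver median of 0.18, a spleen median of −0.57 (4 called lower) and a thymus median of −0.49 (4 called lower). In the chromosome 17 cluster of 10 members at 21565816 to 22867309, medians were 0.33, −0.32 and −0.25, all 9 members tested in spleen were negative, and 2 in spleen and 3 in thymus were called lower. The 8 members of the chromosome 2 cluster were all positive in liver (median 0.16) and all negative in spleen (median −0.39, 4 called lower). Their thymus median was −0.10, with no call there. The chromosome 13 trio of Zfp953, Zfp874a and Zfp874b had medians of 0.46, 0.41 and 0.55. Members of a cluster share sequence and are not independent, so these medians are a description.

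The signs of the differences were compared across tissues. Of the 58 tested in all 3 tissues, 30 were positive in liver and negative in both spleen and thymus, 7 were positive in all and 7 negative in all. These patterns were not counted over all genes, and only 2 of the 62 liver differences were called. They are a description, not a trait of the members. By the test of the difference itself, 17 of 63 members had an X-ray difference that varied with tissue (27.0%, against 30.4% of all genes), a share close to that of all genes. Leaving out 1 library gave 6 (without liver untreated replicate 2) to 24 such members.

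The 8 with the smallest p were Zfp984, Zfp994, Zfp944, Zfp976, Zfp982, Zfp930, Zfp942 and Zfp934. Zfp944 had 9.12, 7.53 and 10.2 in untreated liver and 8.83, 13.6 and 13.02 after X-ray, against 10.7, 10.03 and 10.6 falling to 8.10, 7.79 and 6.82 in thymus. The liver difference was 0.37, the spleen one −0.65 and the thymus one −0.44 (F = 11.81, adjusted p = 0.00633, limma). Zfp984 had 0.37, −0.60 and −0.51 (F = 12.28). Zfp994 differed from the others in that its spleen (−0.22) and thymus (−0.03) differences were small and liver carried the positive value of 0.70. Zfp976 and Zfp982 had liver differences of 0.14 and 0.12 beside their spleen falls, and Zfp930, Zfp942 and Zfp934 had 0.11, 0.37 and −0.10. In all 8, spleen and liver differed (adjusted p from 0.00347 to 0.0171, limma), and none was called for thymus against spleen (adjusted p from 0.123 to 0.917). Of the 8, Zfp942 and Zfp934 lost their interaction call without 3 and 4 of the 18 libraries in turn.

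**Figure D4:**
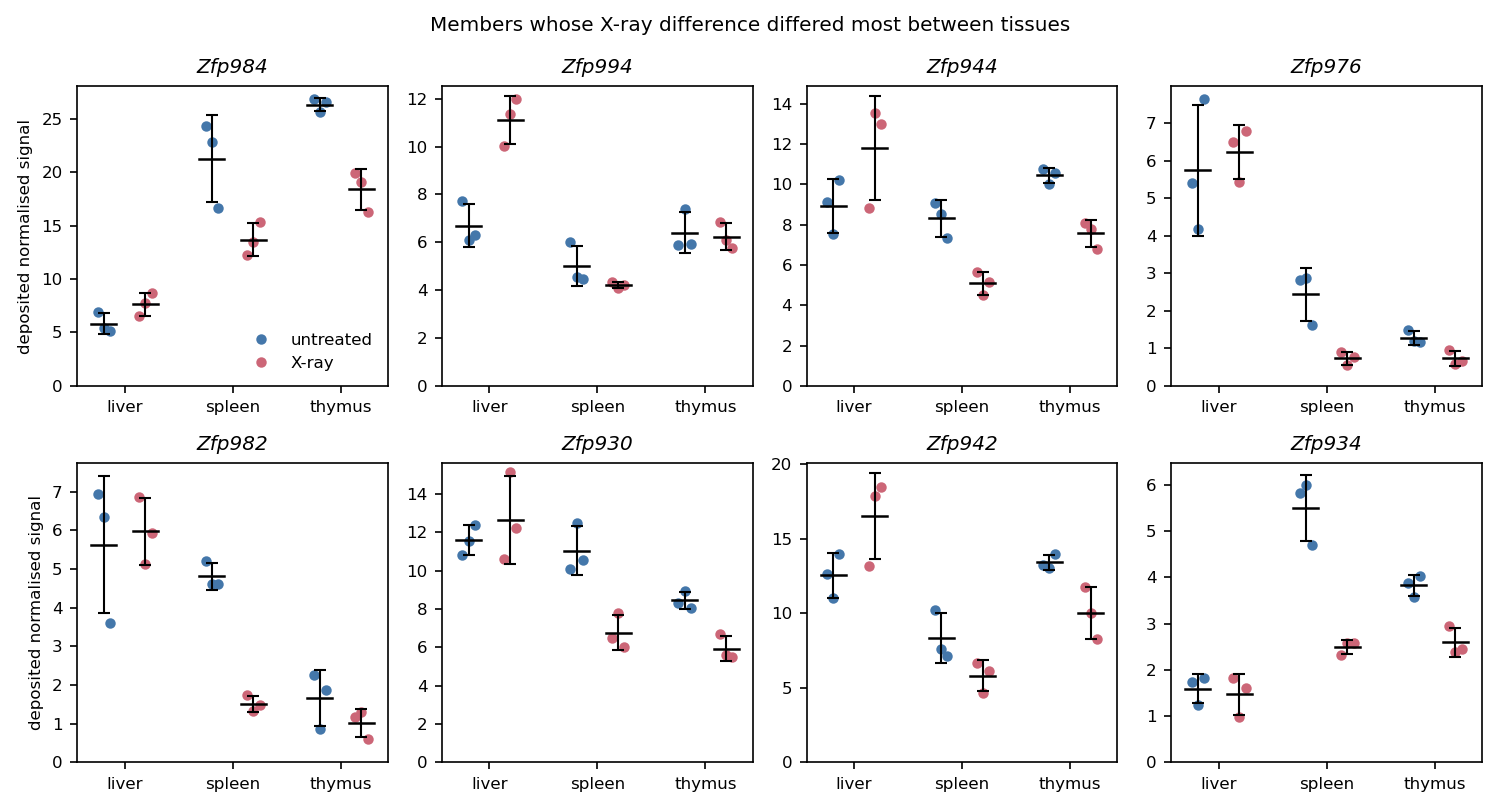
Deposited signal of the members whose X-ray difference varied most with tissue, in each untreated and X-ray library of wt liver, spleen and thymus; points are libraries, horizontal lines the mean of 3 and error bars the SD. Zfp982 stays at 5.12 to 6.85 in the X-ray liver libraries and drops to 1.34 to 1.74 in the X-ray spleen libraries.

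The genes of the Trim28 pathway and of DNA and histone methylation were taken as a list of 43, which also holds a few zinc finger genes outside the range. In liver none of 42 was called by limma, 0 by edgeR and 2 by DESeq2. Of the 42, 9 had an unadjusted limma p under 0.05, against 2902 of all 13250 genes. In spleen 20 were called lower and 3 higher, and in thymus 19 lower and 0 higher. As shares of 42 these were 47.6% and 7.14% in spleen (all genes 20.4% and 19.5%) and 45.2% and 0% in thymus (all genes 11.6% and 9.77%). The medians were −0.27 and −0.24, against −0.03 and 0.01 for all genes. Trim28 itself had −0.40 ± 0.09 in thymus (adjusted p = 0.0114, limma), −0.18 ± 0.12 in spleen (adjusted p = 0.246) and 0.01 ± 0.10 in liver. Setdb1 fell by 0.33 in thymus (adjusted p = 0.0126, limma) and by 0.44 in spleen (adjusted p = 0.0290), and the spleen call was lost without untreated replicate 2 or 3, without X-ray replicate 3, and with sex as a covariate. In liver its difference was 0.03.

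Spleen falls with the smallest p were those of the H3K9 methyltransferases Suv39h2 (−0.87) and Suv39h1 (−0.78), the embryonic KRAB repressor Zfp568 (−0.63) and the methyl-CpG reader Mbd2 (−0.82). The de novo DNA methyltransferase Dnmt3a rose in spleen (0.66 ± 0.10, adjusted p = 0.00162, limma), as did the remodeller Chd3 (0.50) and the Setdb1 partner Resf1 (0.41), the last 2 losing their calls in 3 and 5 of 6 refits. In thymus the smallest p values belonged to the histone chaperone Rbbp7 (−0.48), the reader of hemimethylated DNA Uhrf1 (−0.78), the Trim28 relative Trim33 (−0.46) and Dnmt3b (−0.67). Uhrf1 is known as a gene of cycling cells. Summed cycling cell markers of thymus did not overlap between the groups, and their part in these values was not tested.

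Between d24 and wt in the single-end libraries no member was called in any tissue. In liver 0 of 62 were called by limma (all genes 0.526%, 38 higher and 34 lower, 10 and 1 by edgeR), with a median of −0.23. An unadjusted limma p under 0.05 was found in 3 of the 62, against 1829 of all 13695 genes. In spleen 0 of 61 were called (all genes 2.28%, 141 higher and 168 lower, 83 and 62 by edgeR), with a median of −0.30. Here 3 of the 61 had an unadjusted limma p under 0.05, against 1796 of all 13554 genes. In thymus 0 of 60 were called (all genes 0.00724%), with a median of 0.01. There 4 of the 60 had an unadjusted limma p under 0.05, against 1359 of all 13818 genes. edgeR and DESeq2 on recovered reads also called 0 members in each tissue. The median standard error of a member was 0.48, 0.44 and 0.44, against 0.17, 0.13 and 0.12 in the X-ray comparisons, so differences of the size seen after X-ray were harder to detect here.

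Zfp874a in the libraries titled d24 spleen had a signal of 20.4, 29.4 and 22.5, against 23.2, 27.9 and 30.5 in those titled wt (−0.18 ± 0.30, interval of 95% from −0.84 to 0.48). Liver had 24.1, 12.8 and 20.02 against 22.2, 29.2 and 20.3 (−0.36 ± 0.33), and thymus 11.9, 14.96 and 13.4 against 14.4, 14.6 and 14.6 (−0.12 ± 0.28). The groups overlapped in each tissue. Zfp958 had 9.41, 12.6 and 12.1 against 10.8, 7.83 and 12.3 in spleen (0.15 ± 0.37, interval from −0.65 to 0.96). It had 3.36, 7.37 and 5.97 against 7.09, 9.19 and 11.04 in liver (−0.70 ± 0.43), and 14.5, 18.1 and 11.8 against 10.1, 11.7 and 15.3 in thymus (0.25 ± 0.32). Those groups overlapped too, although Cdkn1a differed between the spleen groups by 5.59 ± 0.28.

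The largest difference in a tissue, none of them called, was that of Zfp951 in liver and spleen and of Zfp934 in thymus. Zfp951 had 2.90, 0.518 and 0.571 in d24 spleen against 4.88, 5.66 and 8.45 in wt (−2.11 ± 0.60, adjusted p = 0.106, limma), with no overlap. It was called with the replicate block (adjusted p = 0.0458) and without d24 spleen replicate 1 (−2.68, adjusted p = 0.0461). In d24 liver it had 6.17, 1.602 and 0 against 4.92, 5.88 and 8.26 (−1.81 ± 0.83, adjusted p = 0.380, limma), a difference of −0.84 without d24 liver replicate 3. In thymus it had 3.43, 6.70 and 3.87 against 6.11, 12.01 and 11.1 (−0.99 ± 0.44). The liver and thymus groups overlapped. Zfp934 had 3.14, 3.21 and 2.76 in d24 thymus against 0.734, 0.617 and 1.21 in wt (1.41 ± 0.55, adjusted p = 0.453, limma), without overlap, and −0.89 and −0.55 in liver and spleen.

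Groups did not overlap in 0 members higher and 4 lower in liver (0% and 6.45%, all genes 7.56% and 11.5%). In spleen they did not overlap in 4 higher and 9 lower (6.56% and 14.8%, all genes 8.74% and 10.6%), and in thymus in 4 and 3 (6.67% and 5%, all genes 9.02% and 7.55%). The share lower in spleen was the only one above that of all genes, and no member was called there. Whether that share differs from all genes was not tested. The interaction of genotype title and tissue called 0 of 66 members with limma (all genes 0.976%), and 0 with edgeR and DESeq2. Its unadjusted limma p was under 0.05 in 5 members, against 1865 of all 16092 genes. Trim28 differed by −0.46, −0.36 and −0.37 in liver, spleen and thymus and Setdb1 by −0.01, 0.95 and 0.00, none called, and the liver value of Setdb1 turned positive with median-ratio scaling, edgeR and DESeq2. Setdb1 in spleen was 0.56 without wt spleen replicate 3, and Trim28 in thymus −0.09 without d24 thymus replicate 3. In spleen the d24 and wt groups also differed in summed B cell markers (55.0 to 291 against 447 to 571) and neutrophil markers (61.6 to 470 against 1384 to 4821). In liver the groups did not overlap in B cell (3.77 to 4.92 against 22.3 to 62.9), T cell (11.2 to 13.5 against 31.4 to 68.8) and neutrophil markers (13.1 to 45.7 against 189 to 492). In thymus they did not overlap in T cell (4158 to 6796 against 7224 to 7800), B cell (17.01 to 26.4 against 39.6 to 58.9) and macrophage markers (126 to 260 against 99.96 to 112). Hepatocyte markers of thymus did not overlap either (38.4 to 1279 against 4.45 to 15.8), with 1279 in d24 thymus replicate 3. Erythroid markers were 3193 in d24 thymus replicate 3 and 11.2 and 7.23 in the other replicates. The part of these markers in the values was not tested.

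**Figure D5:**
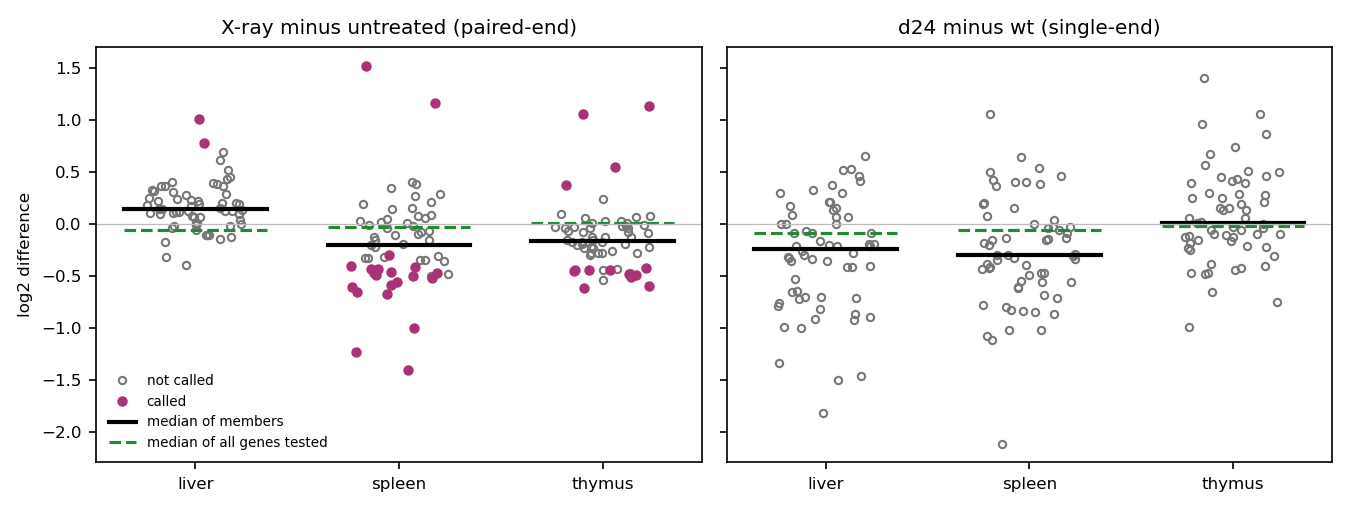
Log2 differences of the tested members for X-ray against untreated wt and for d24 against wt in liver, spleen and thymus; filled points are called members, open points not called, the solid bar is the median of the members and the dashed bar that of all genes tested. In the X-ray panel the median runs from 0.15 in liver to −0.20 in spleen and −0.16 in thymus, and the d24 panel holds no called member.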

How the data were processed

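Total RNA-seq libraries were deposited by the authors as a paired-end and a single-end table of normalised signal per NCBI gene number. The submitters' processing notes name edgeR and mm10, with no version or order. Values were whole multiples of 1 read within 0.01 of a step, so whole reads were recovered from the deposited signal (100% of values), and edgeR called 32, 5272 and 2989 genes for X-ray in liver, spleen and thymus. Of 36 columns of the paired-end table, 18 match no sample and were not used here. Gene numbers matched RefSeq for 96.7% and 97.1% of rows.

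Members and lists were chosen with earlier results of these data known. Tests used limma 3.58.1 with trend on log2(signal + 0.5), for genes that reached a signal of 1 in 3 or more libraries, over the compared groups only, and an F test over all 18 libraries of a table for interactions. edgeR 4.0.16 and DESeq2 1.42.0 (R 4.3.3) on the recovered reads, other pseudocounts, filters and scalings, the replicate block, a fit of all 18 libraries, leaving out each library and, added after seeing the data, sex as a covariate were alternatives. Log2 differences on this scale understate changes of low genes. Scripts were tested on simulated data. Intervals cover 95%.

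Named were Zfp874a and Zfp958, every called member up to 12 per direction, the largest difference not called, 8 interaction members, 5 by level, 3 per tissue pair, Trim28, Setdb1 and up to 4 other corepressors per direction. Same-numbered libraries deviated together in every pair (correlation over 0.1) only for X-ray in spleen (0.177, 0.241 and 0.191) and untreated thymus against spleen (0.278, 0.303 and 0.143). The labels say nothing of pairing.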

Additional observations from a re-analysis of the deposited data

Results flagged for a closer look

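The X-ray difference varied between tissues in 17 members by the interaction test (limma, adjusted p under 0.05). The F values of the 8 with the smallest p were 12.28 for Zfp984, 11.93 for Zfp994, 11.81 for Zfp944, 10.79 for Zfp976, 8.86 for Zfp982, 8.40 for Zfp930, 7.67 for Zfp942 and 7.36 for Zfp934. The share of members, 27.0%, was below the 30.4% of all genes.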

How the results depend on the processing

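The liver calls were the least stable. Of the 2 members called, 0 were left with no filter, with the replicate block or with sex as a covariate, 1 was left with a mean of at least 5, median-ratio scaling or edgeR, and a fit of all 18 libraries called 5. Leaving out 1 library gave 0 to 8 in liver, 10 to 25 in spleen, 5 to 17 in thymus, 0 to 1 for d24 in spleen and 6 to 24 for the X-ray interaction. The fit of all 18 libraries called 9 in thymus, and a mean of at least 5 gave 27 for untreated thymus against spleen. The causes were not tested.

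With the replicate block, 24 members were called for X-ray in spleen, 17 in thymus, 0 in liver and 1 for d24 in spleen, and 44 against 43 for untreated thymus against spleen. The sign of small differences turned for Setdb1 and Trim28: Setdb1 for d24 in liver was 0.049 with median-ratio scaling, 0.030 with edgeR and 0.023 with DESeq2, and −0.33 to 0.16 on leaving out 1 library. Leaving out 1 library gave −0.085 to 0.11 for Setdb1 for d24 in thymus, −0.043 to 0.13 for Setdb1 and −0.015 to 0.041 for Trim28 for X-ray in liver. Depth limits low members most: 3 reads are worth up to 0.248 units of signal in the single-end libraries.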
